A study of Drosophila melanogaster with 2 samples.

Results

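The germ plasm transcripts osk, nos, pgc, gcl, vas, tud and ovo were followed through early Drosophila development, embryo by embryo. The 7 genes were chosen by symbol for their known roles in the germ plasm and the germline, and all 7 were present among the 7629 genes of the normalized table. The study profiled single embryos of the inbred line DGRP 737, collected from cages A and B in intervals of 0-1 h, 1-2 h and 2-3 h and at most 3 h old, with a modified CEL-Seq2 protocol. CEL-Seq2 tags polyadenylated RNA with a barcode for the embryo and a unique molecular identifier (UMI) for the molecule, and each embryo was 1 replicate. The authors ordered 84 embryos along a computed developmental axis, called pseudo-time, and divided them into 8 clusters with 29, 11, 6, 3, 9, 7, 10 and 9 embryos for clusters 1 to 7 and 9, where the last is called 8 in the supplementary tables. All groups shared 1 genotype and no treatment, 1 inbred line stood for the species, and each embryo was measured whole, without its cells being separated.

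Germ plasm is the cytoplasm at the posterior pole of the egg that the mother loads with RNA and protein and that instructs the nuclei entering it to become pole cells, the germline precursors. A few transcripts are anchored and protected there, while most copies of the same transcripts lie unlocalized in the rest of the embryo. During the maternal-to-zygotic transition unlocalized maternal RNA is degraded, and the genome of the embryo takes over. Because a whole embryo was measured, the pole cell pool and the somatic pool could not be told apart, and neither could fewer cells holding a transcript and less of it per cell.

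The values used were UMI counts scaled by the authors to the total of the embryo, called normalized counts, with the 0.1 that the authors had added taken off. They are relative to the polyadenylated RNA counted in an embryo. A change in that total, or in polyadenylation, could not be told apart from a loss or gain of molecules. The embryos had 274425 to 2104120 UMIs in the listed genes, with a median of 931566. The maternal markers bcd and dhd were lower in cluster 5 than in cluster 1, the zygotic markers ftz, eve, sna and nullo were higher, and none of 10 follicle cell markers was listed in the normalized table. Genes were tested with edgeR on UMI counts for 7619 genes and a gene was called where the p adjusted by Benjamini and Hochberg was below 0.01 and the log2 change was beyond 1. The clusters and their order had been computed from the same expression values, so p-values between clusters do not come from independently set groups. Collection intervals were set by the clock, but unfertilized eggs and embryos judged to be past the last interval had been removed by the authors from their expression, so which embryos of an interval remained also depended on expression.

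Osk, the organizer that is itself sufficient to assemble germ plasm, could not be followed. The gene lies on chromosome 3R from 8935126 to 8938395 on the forward strand (FBgn0003015, release 6 of the assembly). A noncoding gene on the same strand, lncRNA:osk, shares 2251 of the 2869 exonic bases of osk (78.5%), including all 1131 bases of its last exon, and was listed with 0 UMIs in both libraries. The mapping summary of the study lists reads assigned to unique genes, and whether reads on the shared exons entered the counts was not tested. The 84 embryos held 62 UMIs of osk in all, in 27 embryos, and 1 embryo of cluster 1 at position 28 held 14 of them. The first 10 embryos had 13 UMIs, with a lowest normalized count of 0, a median of 0.303 and a highest of 0.678. In cluster 1 the UMIs summed to 42 and in cluster 2 to 10, while clusters 3, 5, 6 and 7 had 2, 3, 2 and 3 UMIs. Cluster 4 held 0 of 2035473 UMIs, and cluster 9 held 0 of 6413398, and a count of 0 allows up to 3 UMIs in each of these totals. These limits cover counting error alone. With so few molecules no share left is given for osk, and the remaining 6 genes carry the results.

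Of those 6, 5 fell to under 10% of their starting level by cluster 5, and gcl followed by cluster 6. For comparison, 6296 transcripts had a mean above 1 normalized count in the first 10 embryos. Of these, 1131 (17.96%) were under 10% in cluster 5 and 1142 (18.14%) in cluster 6. The 6 genes left at different times. The helicase vas fell first and furthest, nos and tud had lower shares at each step and were called lower in the step to cluster 4, pgc and ovo held until cluster 3 and dropped in cluster 4, and gcl did not fall until cluster 5. After the fall nos, pgc, vas and gcl stayed low, whereas tud came back from cluster 6 on and ovo in cluster 9.

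**Figure D1:**
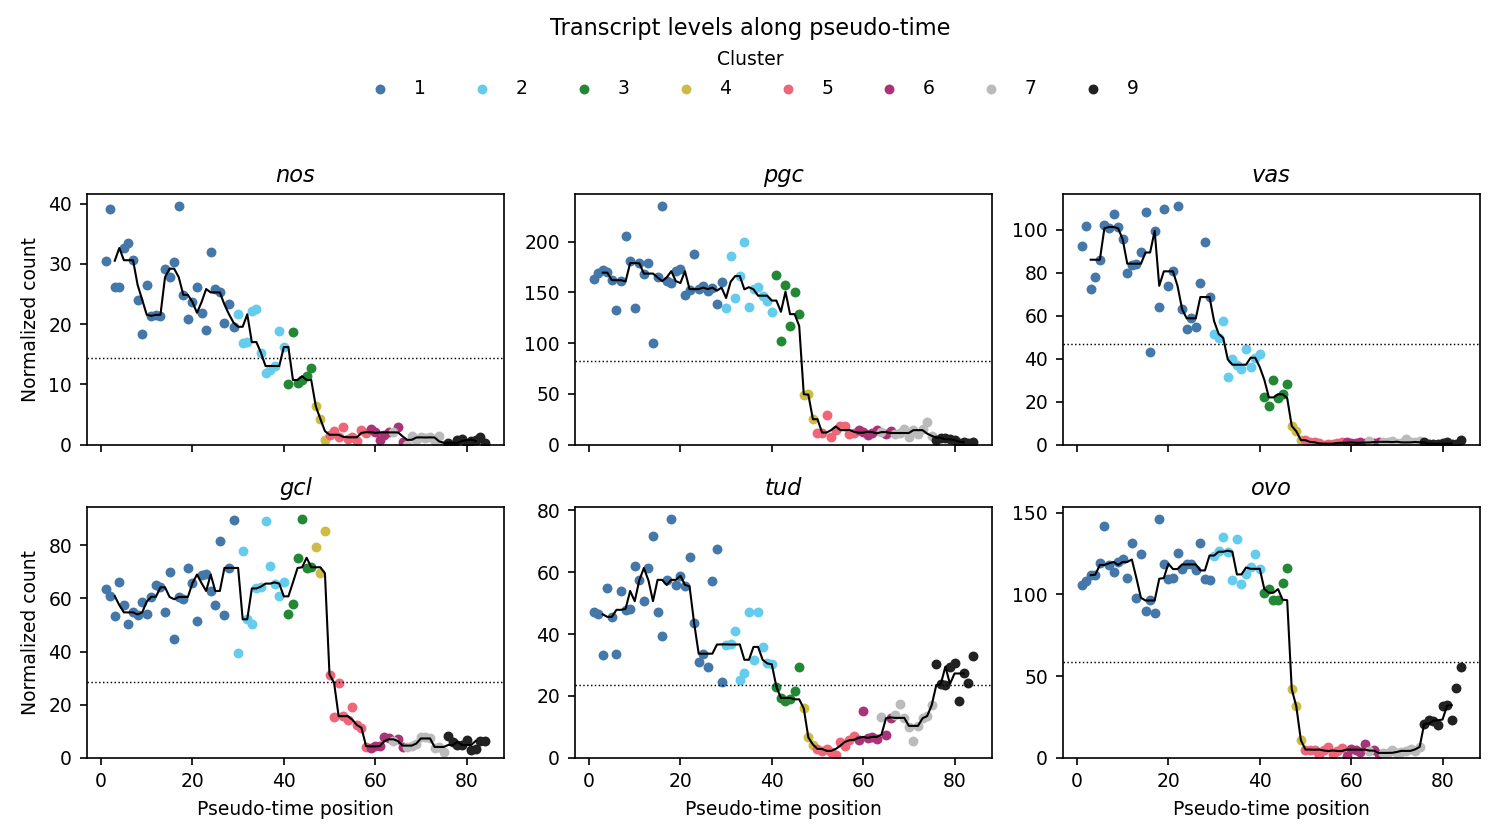
Normalized count of nos, pgc, vas, gcl, tud and ovo in each of 84 embryos (points, coloured by cluster) against pseudo-time position; the black line is the running median over 5 embryos and the dotted line is 50% of the mean of the first 10 embryos. vas crosses the dotted line at position 33, pgc and ovo at 47 and gcl at 51, while tud dips and ends above it.

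The gene vas encodes a DEAD-box RNA helicase that is a core part of germ granules. It lies on chromosome 2L from 15061656 to 15074311 (FBgn0283442), and its first exons are shared with solo, which ends at 15072133 on the same strand. The first 10 embryos held a mean of 93.8 ± 11.6 normalized counts (SD, n = 10), between 72.3 and 107.5. Cluster 1 ranged from 43.2 to 110.9 with a median of 84.2, cluster 2 from 31.4 to 57.5 with a median of 40.4, and cluster 3 from 18.1 to 30.2 with a median of 22.7. The ranges of clusters 2 and 3 did not overlap, although 3 embryos of cluster 1 lay within the range of cluster 2. The 3 embryos of cluster 4 had 8.70, 6.21 and 2.15 normalized counts, and cluster 5 had 0 to 2.06 with a median of 0.836. In cluster 5 only 25 UMIs of vas were counted in 9 embryos. Cluster 2 had 45.1% ± 8.40 (SD, n = 11) of the level of the first 10 embryos, cluster 3 had 25.5% ± 4.78 (n = 6), cluster 4 had 6.06% ± 3.53 (n = 3), and 0.949% ± 0.673 (n = 9) was left by cluster 5. It then stayed between 0.857% and 1.43% in clusters 6, 7 and 9, where 16, 44 and 20 UMIs were counted in all.

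Among the 6296 maternal transcripts, which were those with a mean above 1 normalized count in the first 10 embryos, the median share left was 99.7% in cluster 2, 96.1% in cluster 4 and 73.3% in cluster 5. Only 4.35% of these transcripts had a lower share left than vas in cluster 2, and 1.70% had a lower share in cluster 5. From cluster 1 to cluster 5 vas fell by 6.26 ± 0.22 on the log2 scale (± SE, adjusted p = 1.39e-30), with every embryo of cluster 5 below every embryo of cluster 1.

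The gene nos encodes a translational repressor that patterns the abdomen and keeps germline precursors from somatic fates. It lies on chromosome 3R from 19157238 to 19160202 (FBgn0002962) and overlaps CG11779 and Nsun5 on the other strand. Its first 10 embryos had 18.3 to 39.1 normalized counts, with a mean of 28.8 ± 5.80 (SD, n = 10). Cluster 1 ranged from 18.3 to 39.6 (median 25.8), cluster 2 from 12.0 to 22.5 (median 16.96) and cluster 3 from 10.0 to 18.7 (median 11.0). The ranges of clusters 1, 2 and 3 overlapped from each to the next, while their medians fell in that order. In cluster 4 the embryos had 6.38, 4.27 and 0.717 normalized counts, all below every earlier embryo. Cluster 5 ranged from 0.562 to 3.02 with a median of 1.65. Cluster 2 kept 59.5% ± 13.4 (SD, n = 11) of the starting level, cluster 3 kept 42.7% ± 11.4 (n = 6) and cluster 4 kept 13.2% ± 9.96 (n = 3). By cluster 5 it was 5.95% ± 2.77 (n = 9), and 1.92% ± 1.51 (n = 9) remained at the end of the order. In cluster 9 only 12 UMIs were counted in 9 embryos, 2 of which had none. From cluster 1 to cluster 5 nos fell by 3.87 ± 0.20 on the log2 scale (± SE, edgeR, adjusted p = 1.96e-23).

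The gene pgc encodes a small peptide that holds back transcription by RNA polymerase II in pole cells. It lies on chromosome 2R from 22330200 to 22332813 (FBgn0016053), and 46.9% of its exonic bases lie opposite exons of T3dh, and whether strand was used in counting is not given in the sources used here. Its first 10 embryos held 133.03 to 205.9 normalized counts, with a mean of 165.2 ± 20.99 (SD, n = 10). Clusters 1 and 2 ranged from 100.04 to 234.9 (median 161.99) and from 130.9 to 199.3 (median 146.7), and cluster 3 had a lowest value of 101.9, a median of 139.6 and a mean of 136.99 ± 25.2 (SD, n = 6). These 3 clusters overlapped almost entirely. The embryos of cluster 4 had 49.3, 49.7 and 25.1 normalized counts, all below every earlier embryo. Cluster 5 ranged from 7.24 to 28.8 (median 12.0), cluster 7 from 8.00 to 22.6 (median 11.9) and cluster 9 from 1.72 to 7.03 (median 4.43). Cluster 3 kept 82.9% ± 15.3 (SD, n = 6) of the starting level, cluster 4 kept 25.04% ± 8.53 (n = 3), cluster 5 kept 8.91% ± 3.83 (n = 9) and cluster 7 still held 7.86% ± 2.59 (n = 10). It thus paused for 3 clusters before a second drop, to 2.47% ± 1.22 in cluster 9 (n = 9). From cluster 7 it fell by 1.78 ± 0.22 on the log2 scale (adjusted p = 2.37e-08 with edgeR), and every embryo of cluster 9 lay below every embryo of cluster 7. From cluster 1 to cluster 5 pgc fell by 3.17 ± 0.13 on the same scale (adjusted p = 1.86e-27).

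The gene gcl encodes a substrate adaptor of a ubiquitin ligase that pole cells need in order to form. It lies on chromosome 2R from 8724258 to 8728999 (FBgn0005695). In the first 10 embryos it stood at 57.4 ± 5.01 normalized counts (SD, n = 10), between 50.5 and 66.2. Its medians were 60.6, 64.5, 71.6 and 79.2 in clusters 1, 2, 3 and 4, with the 3 embryos of cluster 4 at 79.2, 69.5 and 85.3. While the other 5 genes had dropped by cluster 4, gcl stood at 135.97% ± 13.9 of its starting level there (SD, n = 3). That rise in share lay within the ranges of the earlier clusters, and none of the steps from cluster 1 to cluster 4 was called for gcl (adjusted p between 0.259 and 0.940 with edgeR). Cluster 5 then spanned 3.93 to 31.4 normalized counts with a median of 15.2. Its first embryo, at position 50, had 31.4 and its last, at position 58, had 3.93, so the fall ran through that cluster. In cluster 6 the range was 3.79 to 7.81 and the share left 9.65% ± 3.13 (n = 7), and it was 9.34% ± 3.34 in cluster 7 (n = 10) and 9.64% ± 2.87 in cluster 9 (n = 9).

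Between cluster 4 and cluster 5 gcl fell by 2.04 ± 0.25 on the log2 scale (adjusted p = 8.03e-07) and between cluster 5 and cluster 6 it fell by 1.55 ± 0.26 (adjusted p = 2.99e-05, both with edgeR). A share above 100% in cluster 4 that was under 10% in cluster 6 was found for 48 of the 6296 maternal transcripts (0.762%), by limits set after the values of gcl were seen.

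The gene tud encodes a scaffold protein of germ granules with repeated Tudor domains. It lies on chromosome 2R from 21183322 to 21192913 (FBgn0003891), with no overlapping gene in the annotation used. Its first 10 embryos held 33.4 to 62.1 normalized counts, with a mean of 47.3 ± 8.88 (SD, n = 10). Cluster 1 ranged from 24.6 to 77.1 (median 50.6), cluster 2 from 25.1 to 47.2 (median 35.8) and cluster 3 from 18.5 to 29.4 (median 20.49). The embryos of cluster 4 had 15.96, 6.60 and 4.301 normalized counts, and cluster 5 had 0.898 to 7.21 with a median of 2.89. The lowest level was thus reached in cluster 5, at 7.73% ± 4.36 of the start (SD, n = 9). Cluster 6 then ranged from 5.68 to 15.05 (median 6.77), cluster 7 from 5.37 to 17.5 (median 12.99) and cluster 9 from 18.3 to 32.98 (median 27.3). All embryos of cluster 9 lay above all of clusters 5, 6 and 7. Relative to the first 10 embryos, cluster 6 was back at 18.2% ± 7.87 (n = 7), cluster 7 at 26.7% ± 7.44 (n = 10) and cluster 9 at 56.5% ± 9.82 (n = 9).

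From cluster 1 to cluster 5 tud fell by 3.55 ± 0.21 on the log2 scale (adjusted p = 1.83e-21), and from cluster 5 to cluster 9 it rose by 2.80 ± 0.20 (adjusted p = 2.50e-14, both with edgeR). Beside 47.2% of maternal transcripts with a lower share left in cluster 9, tud ended near the middle of that group after it had been at the 14.9% point in cluster 5.

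The gene ovo encodes a zinc finger transcription factor that germline cells need in the female, and other isoforms of the same gene, known as shavenbaby, shape the larval epidermis. It lies on the X chromosome from 5048273 to 5070929 (FBgn0003028), and 1 row of the table pools all isoforms. The first 10 embryos had 105.9 to 141.5 normalized counts, with a mean of 117.1 ± 9.98 (SD, n = 10). Clusters 1, 2 and 3 had medians of 114.6, 123.7 and 102.1, with ranges of 88.3 to 145.9, 106.2 to 135.3 and 96.4 to 116.3, which overlapped. In cluster 4 the embryos had 42.1, 31.4 and 10.8 normalized counts, all below every earlier embryo. Clusters 5, 6 and 7 ranged from 1.81 to 6.39, from 1.26 to 8.16 and from 2.99 to 6.73, and did not differ beyond that spread. In cluster 9 ovo was back at 20.3 to 55.6 with a median of 23.4, above every embryo of clusters 5 to 7.

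Cluster 3 kept 88.3% ± 6.36 (SD, n = 6) of the starting level of ovo, cluster 4 kept 23.98% ± 13.6 (n = 3) and cluster 5 kept 3.83% ± 1.27 (n = 9). Cluster 7 was as low, at 3.61% ± 0.997 (n = 10), and cluster 9 was at 25.8% ± 10.2 (n = 9). It fell by 4.46 ± 0.12 on the log2 scale from cluster 1 to cluster 5 (adjusted p = 3.21e-35), and rose by 2.73 ± 0.20 from cluster 7 to cluster 9 (adjusted p = 3.11e-13, both with edgeR). A share under 10% in cluster 5 that had grown over 3 times by cluster 9 was found for tud and ovo and for 746 of the 6296 maternal transcripts in all (11.8%), by limits set after these values were seen.

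**Figure D2:**
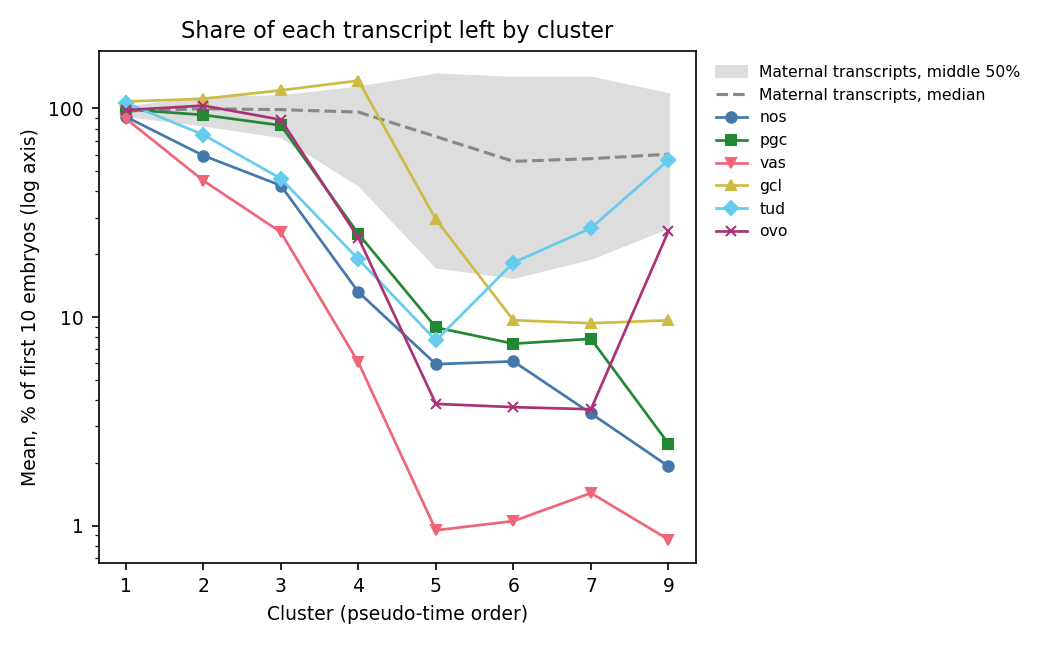
Mean normalized count of each gene as a percentage of its mean in the first 10 embryos (log axis) by cluster, in pseudo-time order; the grey band spans the middle 50% of 6296 maternal transcripts and the dashed line is their median. vas runs lowest, at 0.949% in cluster 5, gcl stays near the upper edge of the band to cluster 4, and tud and ovo climb back to 56.5% and 25.8% in cluster 9.

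A running median over 5 embryos put the timing on the order itself. It stayed below 50% of the starting level from position 33 on for vas (in cluster 2), 42 for nos (cluster 3), 47 for pgc and ovo (cluster 4) and 51 for gcl (cluster 5). The median of nos first touched that level at position 36 and rose above it again. For tud it went below at position 41, bottomed at 4.77% at position 52, and ended at 57.7%, so that no lasting fall could be given.

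Counted by the calls, 6 of the 7 genes were lower in cluster 5 than in cluster 1, where edgeR called 32.8% of all tested genes lower and 18.6% higher. The exception was osk (log2 change -1.28 ± 0.76, adjusted p = 0.115). The median change was -3.55 on the log2 scale over the 7 genes and 0.13 over all tested genes. TMM factors, which edgeR uses to scale libraries, moved the median of all genes by 0.19 in this comparison. The shift was -0.11 to 0.14 in the other cluster and interval comparisons. With library totals in place of TMM factors 6 of the 7 genes were still called here. Calls near a threshold changed with the scaling in other steps, as given below.

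Step by step, vas alone was called lower from cluster 1 to cluster 2 (log2 change -1.02 ± 0.11, adjusted p = 2.16e-11), against 3.83% of all genes. That change sits at the threshold. With library totals in place of TMM factors it was -0.99 and with limma -0.97, so that 0 genes of the set were called. Of the others, nos (-0.65 ± 0.11, adjusted p = 5.51e-06) and tud (-0.52 ± 0.12, adjusted p = 4.17e-04) had adjusted p-values below 0.01 with smaller changes. From cluster 2 to cluster 3 edgeR called 0 of the 7 genes and 3.44% of all genes in either direction, with 3 of the 7 at an unadjusted p below 0.05, and DESeq2 called 0.

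From cluster 3 to cluster 4 nos, tud, pgc, ovo and vas were called lower, 5 of 7 beside 10.2% of all genes. The changes were -1.37 ± 0.33, -1.07 ± 0.26, -1.63 ± 0.21, -1.75 ± 0.22 and -1.87 ± 0.26 on the log2 scale. Cluster 4 had 3 embryos, and the one at position 49 was lowest for nos, pgc, vas, tud and ovo and highest for gcl. That embryo held 1 UMI of nos, 3 of vas and 6 of tud. Without it, pgc, vas, ovo and nos were still called, and tud was not (-0.89, under the fold threshold, adjusted p = 0.00987). Without the embryo at position 48 tud was not called either (-0.85, adjusted p = 0.030). With limma the calls of nos (adjusted p = 0.0442) and tud (adjusted p = 0.0272) were lost.

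From cluster 4 to cluster 5 gcl, pgc, vas and ovo were called lower, 4 of 7 beside 15.6% of all genes. The changes of pgc, vas and ovo were -1.32 ± 0.24, -2.56 ± 0.45 and -2.55 ± 0.28. Both nos (-1.28 ± 0.47, adjusted p = 0.029) and tud (-1.23 ± 0.38, adjusted p = 0.0118) missed the threshold, and both passed it without the embryo at position 49 (-1.61 and -1.46, with adjusted p-values of 0.00487 and 0.00377). With limma 3 genes were called, as vas lost its call (adjusted p = 0.0258), while library totals gave 5 and a fit of all 84 embryos gave 6.

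From cluster 5 to cluster 6 gcl was the 1 gene called lower, beside 5.62% of all genes, and tud the 1 called higher, beside 3.79%. The rise of tud was 1.33 ± 0.28 (adjusted p = 4.44e-04), and with limma it missed the threshold (adjusted p = 0.0177). Between cluster 6 and cluster 7, 0 of the 7 genes were called and 2.18% of all genes, and DESeq2 called 0 of the 7. With edgeR 1 of the 7 and 2029 of the 7619 tested genes had an unadjusted p below 0.05. From cluster 7 to cluster 9 pgc was called lower, beside 15.8% of all genes, and ovo higher, beside 21.1%. For tud the change was 0.97 ± 0.14 with an adjusted p of 5.77e-07 in edgeR, just under the fold threshold, and DESeq2 called 3 of the 7 genes in this step.

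Across the whole later span, from cluster 5 to cluster 9, tud and ovo were called higher, 2 of 7 beside 29% of all genes. The genes nos, gcl and pgc were called lower, 3 of 7 beside 22.4%. Their changes were -1.56 ± 0.47, -1.66 ± 0.23 and -1.94 ± 0.24 on the log2 scale, and ovo rose by 2.69 ± 0.22. The value for vas was -0.15 ± 0.44 (adjusted p = 0.770).

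Ratios of these transcripts within an embryo do not depend on the total to which the embryo was scaled. They are given per UMI of pgc and move with pgc itself. Its share left was 25.04% in cluster 4, 7.86% in cluster 7 and 2.47% in cluster 9. In cluster 9 pgc had 3 to 18 UMIs per embryo. The gcl transcript had 0.376 UMIs per UMI of pgc in cluster 1 (median, range 0.190 to 0.559, n = 29), 0.519 in cluster 3 (0.323 to 0.768, n = 6) and 1.61 in cluster 4 (1.398 to 3.40, n = 3). All embryos of cluster 4 lay above all earlier ones. In cluster 6 the median was back at 0.462 (0.261 to 0.698, n = 7), within the range of the earliest embryos, and in cluster 9 it was 1.47 (0.722 to 3.75, n = 9). The share left of gcl was 9.34% in cluster 7 and 9.64% in cluster 9, while that of pgc fell. For vas per pgc the median went from 0.522 in cluster 1 to 0.275, 0.181 and 0.125 in clusters 2, 3 and 4. For ovo per pgc it was 0.695, 0.794, 0.767 and 0.633 in clusters 1 to 4, and the 3 embryos of cluster 4 spanned 0.429 to 0.853. The median was lower in cluster 5, at 0.351 (0.141 to 0.5, n = 9). It stood at 0.322 in cluster 7 (0.187 to 0.773, n = 10) and 7.13 in cluster 9 (3.27 to 24.8, n = 9). The median of tud per pgc went from 0.300 (cluster 1) to 0.153 (cluster 3), stood at 1.001 (cluster 7) and reached 6.87 by cluster 9 (3.40 to 14.25, n = 9).

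**Figure D3:**
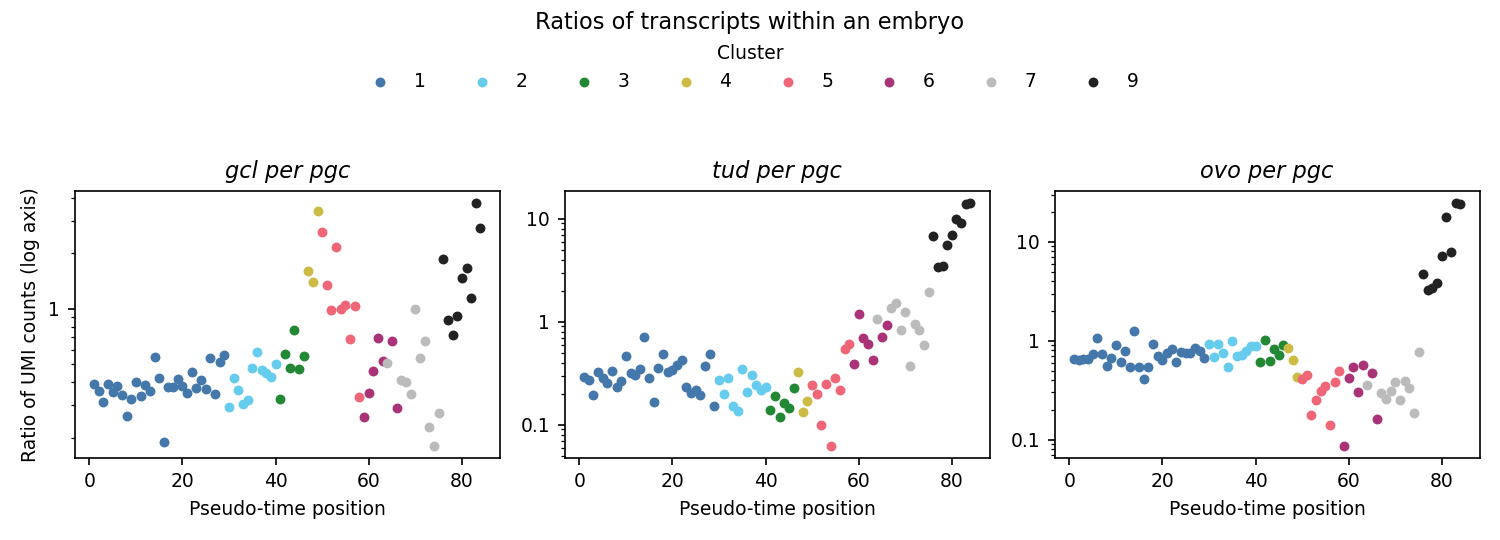
UMI counts of gcl, tud and ovo divided by those of pgc in the same embryo (log axis) against pseudo-time position, coloured by cluster. gcl per pgc stands above all earlier embryos in cluster 4, at 1.398 to 3.40, and tud and ovo per pgc reach medians of 6.87 and 7.13 in cluster 9. The share left of pgc itself is 25.04% in cluster 4 and 2.47% in cluster 9.

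The collection intervals grouped the retained embryos by the clock in place of pseudo-time. Of 28 embryos collected at 0-1 h, 23 were in cluster 1 and 5 in clusters 5 to 9. Of 33 embryos of 1-2 h, 26 were in clusters 1 to 4 and 7 in clusters 6 to 9. All 23 embryos of 2-3 h were in clusters 5 to 9. These late embryos were kept in the tests, while others of the same intervals were among those the authors had removed by expression, and how the removal bears on the interval differences was not tested.

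At 0-1 h vas ranged from 0.373 to 110.9 normalized counts with a median of 85.1, at 1-2 h from 0.429 to 80.7 (median 31.4) and at 2-3 h from 0 to 2.43 (median 1.04). The 0-1 h embryos fell into a high and a low group, with 53.6 to 110.9 for the 23 embryos in cluster 1 and 0.373 to 2.03 for the 5 late ones. The same gap was seen for gcl (50.5 to 71.5 against 2.37 to 11.3), pgc (100.04 to 205.9 against 2.31 to 10.9) and nos (18.3 to 39.6 against 0 to 2.51). For tud the late embryos overlapped the early ones, with 5.85 to 32.98 against 30.8 to 77.1. For ovo they did not, at 4.18 to 55.6 against 88.3 to 145.9. The early and late groups are clusters computed from the expression values, so these gaps are not independent of the clustering. How many of all genes show such a gap was not counted.

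All 7 genes were called lower at 2-3 h than at 0-1 h with cage in the model, where edgeR called 31.1% of all genes lower. The changes were -5.96 ± 0.53 for vas, -3.84 ± 0.43 for nos, -3.35 ± 0.37 for pgc, -3.25 ± 0.39 for ovo, -2.24 ± 0.32 for gcl and -1.99 ± 0.26 for tud on the log2 scale, with adjusted p-values of at most 2.20e-09. The median was -3.25 over the 7 genes and -0.02 over all tested genes. The call for osk (-1.64 ± 0.54, adjusted p = 0.00464) rested on few molecules, since 14 of 28 embryos of 0-1 h and 20 of 23 of 2-3 h had none, and it was lost with DESeq2 (adjusted p = 0.0977) and with limma (log2 change -0.94).

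Between 1-2 h and 0-1 h vas was the 1 of 7 genes called lower (-1.28 ± 0.35, adjusted p = 0.00810), beside 4.28% of all genes. With library totals its adjusted p was 0.0112 and with limma 0.0898. For tud the change was -0.92 ± 0.22, under the fold threshold, with an adjusted p of 0.00164 in edgeR. It was -1.06 ± 0.41 for osk (adjusted p = 0.0754) and -0.74 ± 0.31 for nos (adjusted p = 0.102), both with edgeR. For ovo the difference was -0.28 ± 0.31, for pgc -0.26 ± 0.29 and for gcl 0.03 ± 0.26. From 1-2 h to 2-3 h the 6 genes other than osk were called lower, beside 26.3% of all genes, with changes from -1.07 ± 0.24 for tud to -4.68 ± 0.51 for vas.

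**Figure D4:**
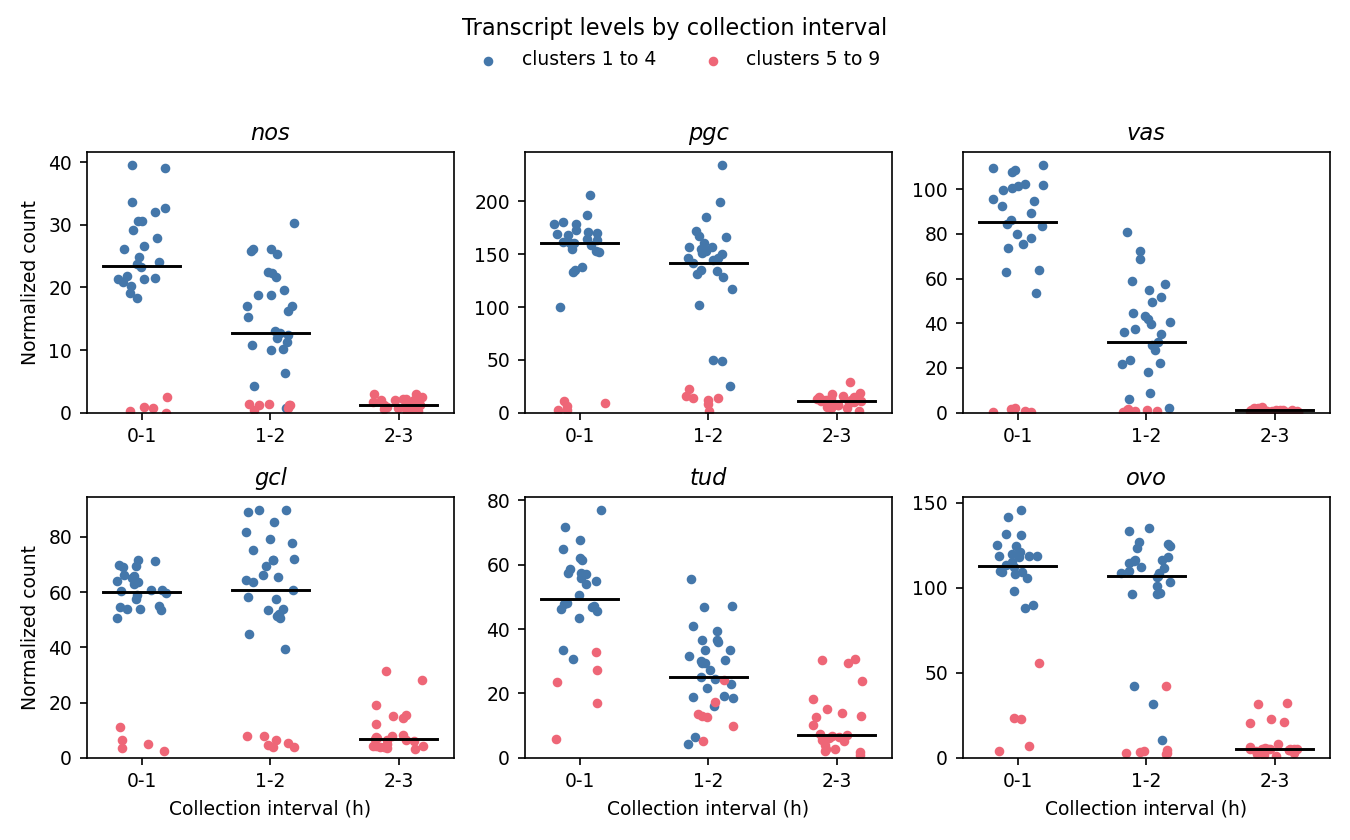
Normalized count of 6 genes in each embryo by collection interval, with embryos of clusters 1 to 4 in blue and of clusters 5 to 9 in red and the median of the interval as a black bar. At 2-3 h all 23 embryos are of the late clusters and vas has a median of 1.04, while at 0-1 h the 5 late embryos stand apart from the 23 early ones except for tud.

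The spread among embryos of cluster 1 was compared between the 6 genes. The coefficient of variation over 29 embryos was 11.4% for ovo, 14.5% for pgc, 15.4% for gcl, 21.3% for nos, 22.4% for vas and 26.1% for tud. The part expected from counting UMIs, in the same order, was 5.24%, 4.39%, 7.14%, 11.0%, 6.13% and 7.93%, which leaves out the noise of capture and library preparation. Cluster 1 spans positions 1 to 29, and its lowest value of tud came from the embryo at position 29 and its lowest of vas from that at position 16.

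Of 61 genotyped embryos, 30 were female and 31 male. With sex and its interaction with cluster tested together, edgeR called 0 of the 7 genes and 0.407% of all genes, 0 of the 7 had an unadjusted p below 0.05, and DESeq2 called 0. The X-linked ovo had an adjusted p of 0.776 in that test. In cluster 9, looked at after its values were seen, the 5 females had 23.4 to 55.6 normalized counts of ovo (median 32.3) and the 4 males 20.3 to 22.95 (median 21.8), with no overlap. The difference was 0.76 ± 0.20 on the log2 scale (adjusted p = 0.0319 with edgeR). A call within a cluster was set at an adjusted p below 0.01 with no limit on the fold, and ovo passed it with DESeq2 (0.00755) and not with edgeR or limma. In cluster 9 edgeR called 0 of the 7 genes and 52 of the 7619 tested genes. The 4 males stood at positions 76 to 79 and the 5 females at 80 to 84, so sex and position in the order cannot be told apart there. For pgc the females had 1.72 to 4.46 and the males 4.43 to 7.03, with a difference of -1.07 ± 0.35 (adjusted p = 0.102 with edgeR and 0.00349 with limma). For tud, which is autosomal, the ranges of 18.3 to 32.98 and 23.5 to 30.4 overlapped. In cluster 7 ovo differed by -0.04 ± 0.34 between 7 females and 3 males.

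**Figure D5:**
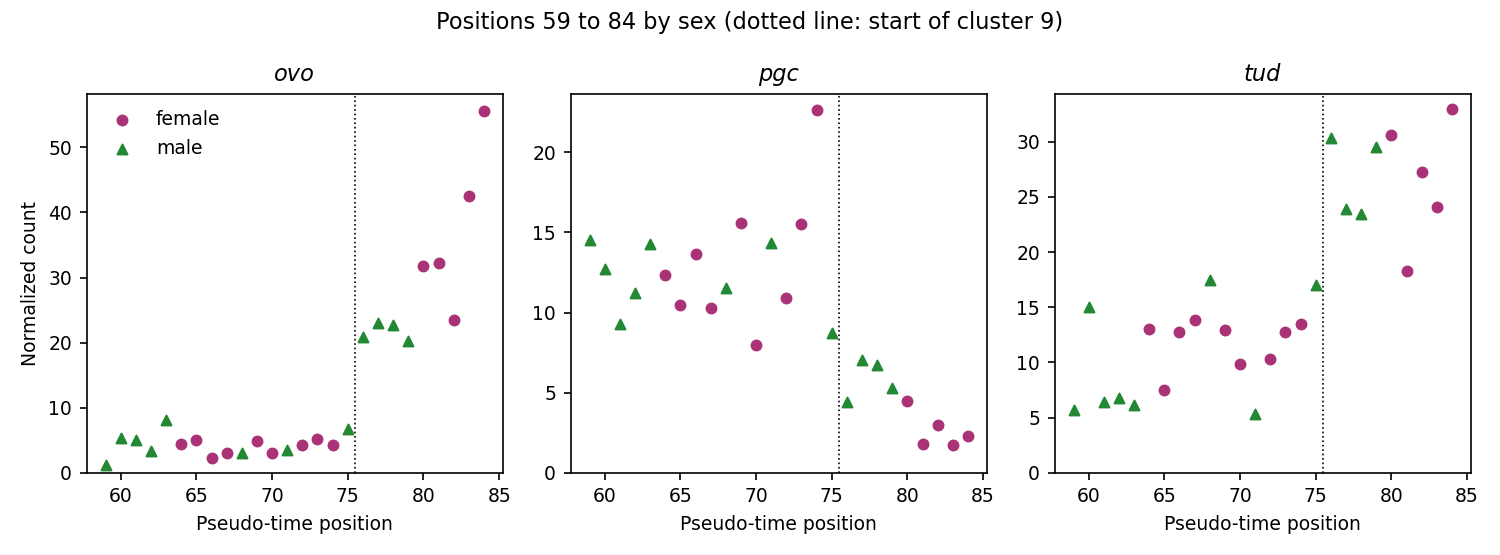
Normalized count of ovo, pgc and tud in the embryos at positions 59 to 84, females as circles and males as triangles; the dotted line marks the start of cluster 9. All 4 males of cluster 9 (20.3 to 22.95 for ovo) stand before its 5 females (23.4 to 55.6), so sex and order run together.

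Cages were compared next. With cluster in the model edgeR called 0 of the 7 and 0% of all genes between cage A (47 embryos) and cage B (37 embryos), tud alone had an unadjusted p below 0.05, and DESeq2 called 0. The difference was at most 0.17 in size on the log2 scale, for nos (-0.17 ± 0.09).

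Other genes of the germ plasm were counted by list. Of 10 genes for germ plasm assembly 9 were tested, and from cluster 1 to cluster 5 2 were lower, 0 higher and 7 not called, beside 32.8% lower and 18.6% higher of all genes, with a median change of 0.63 beside 0.13 over all genes. Those lower were spir (-2.76 ± 0.15, adjusted p = 4.49e-23) and capu (-1.66 ± 0.14, adjusted p = 2.35e-15), the actin nucleators that set up transport in the oocyte. Among those not called, tsu, csul, stau, mago and aub rose by 0.63 to 0.78, under the fold threshold. Their adjusted p-values were at most 1.44e-05 with edgeR. The changes of par-1 and vls were -0.19 ± 0.10 and -0.11 ± 0.16. For aub, a gene of the piRNA pathway, cluster 1 had 14.98 ± 2.88 normalized counts (SD, n = 29) and cluster 5 had 20.01 ± 3.56 (n = 9), which was not called, and cluster 9 was called lower than cluster 5 at 1.13 ± 0.656 (n = 9). From cluster 5 to cluster 9 that list had 4 genes lower, beside 22.4% of all genes, and 1 higher, beside 29%, which was vls, whose product partners that of the arginine methyltransferase gene csul.

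Of 6 other transcripts known from the posterior pole or pole cells, 5 were lower in cluster 5 than in cluster 1, beside 32.8% of all genes, and mamo was not called. The 3 with the largest changes were orb, a regulator of polyadenylation in the oocyte (-4.82 ± 0.16), Tre1, a receptor that guides germ cell migration (-3.11 ± 0.17), and Hsp83, the fly Hsp90 (-2.96 ± 0.12), with a list median of -2.43. Tre1 rose between clusters 5 and 9 from 1.82 ± 0.876 to 22.1 ± 5.56 normalized counts, and wun2, a lipid phosphatase gene that acts in germ cell migration, rose from 14.7 ± 2.07 to 40.4 ± 12.8 (SD, n = 9 each). These were the 2 genes of this list called higher in cluster 9 than in cluster 5, beside 29% of all genes.

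Among 14 RNA-binding regulators of osk or nos RNA, 13 were tested, and 3 were lower, 2 higher and 8 not called in cluster 5 against cluster 1, where 32.8% of all genes were lower and 18.6% higher, with a list median of -0.07. The lower ones were exu (-6.09 ± 0.17), which localizes maternal RNA in the oocyte, bru1 (-4.94 ± 0.14), a repressor of osk translation, and Imp (-1.10 ± 0.09). The higher ones, heph and glo, moved by 1.06 ± 0.09 and 1.05 ± 0.07, right at the threshold. The repressor smg, which directs the removal of unlocalized nos RNA, had 183.05 ± 24.98 normalized counts in cluster 1, 91.8 ± 43.1 in cluster 5 and 8.48 ± 2.04 in cluster 9, and was called lower in the second of these steps alone. Its change in the first step was -0.81 ± 0.13 (adjusted p = 9.49e-08 with edgeR), under the fold threshold. The reference transcripts CG6707 and Pgam5, which the study used for qPCR, differed by 0.21 and 0.27 from cluster 1 to cluster 5. Neither was called, as both changes were under the fold threshold (adjusted p = 0.00364 and 1.28e-04 with edgeR). From cluster 5 to cluster 9 Pgam5 was called lower (-1.25 ± 0.11, adjusted p = 1.24e-11) and CG6707, at -0.75 ± 0.10, was not.

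The genes whose log2 normalized counts followed each transcript most closely over 84 embryos were named by rank, with Pearson's r as a description, since all genes share the scaling and the order of the embryos. For pgc they were Prx2 (r = 0.98), Vha13 (0.98) and Dip-B (0.98), and for vas they were yin (0.98), CG8180 (0.97) and dmGlut (0.97). For ovo they were Alg9, Orc1 and trc (each 0.97 to 0.98), and for gcl Fur2 (0.97), Gpdh1 (0.96) and CAH2 (0.96). For nos they were 26-29-p, Argk1 and ATPsynC (each 0.94), and for tud path, Oga and CG14411 (each 0.94). Fur2, like gcl, stood at 127.3% of its start in cluster 4 and at 19.1% in cluster 5, and path, like tud, went from 4.45% in cluster 5 to 61.2% in cluster 9. The other correlates named for gcl stood lower in cluster 4, Gpdh1 at 100.7% and CAH2 at 60.6%. All were picked by r on the same values, so a likeness is no separate result. Between the 6 genes themselves r ran from 0.49 for gcl and tud to 0.93 for pgc and vas.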

How the data were processed

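Single-embryo CEL-Seq2 libraries were demultiplexed, mapped and counted by the authors with STAR 2.7.8a (STARsolo) on annotation 6.28 (Ensembl release 100). The authors deposited UMI counts as whole numbers, without normalization, for 192 barcodes in each of 2 libraries, and a table of normalized counts in pseudo-time order, made by scaling every embryo down to the smallest total and adding 0.1. UMI counts of the 84 embryos were recovered from that table after 0.1 was subtracted, and 100% of values came out whole within 0.0001. Clusters, sex, interval and cage came from the supplementary tables and embryo names. One supplementary list gives an embryo of cluster 1 a second time and leaves out an embryo of cluster 9, whose cluster came from another sheet, and the order of the deposited columns was used. Which library an embryo came from was not used.

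Genes with at least 3 counts in 5 of the 84 embryos were tested, and all 7 members passed. The tests were edgeR 4.0.16 quasi-likelihood with TMM factors, with Benjamini-Hochberg adjustment over all tested genes, in R 4.3.3, with DESeq2 1.42.0 and limma 3.58.1 on log2 values as alternatives. The scripts were tested on simulated data with 200 changed genes. Further alternatives were no filter, a filter of 10 counts, library totals, all embryos in 1 fit, cage as a covariate, leaving out single embryos of cluster 4, and other bases and scalings of the shares. Positions come from Ensembl release 115 on the same assembly, release 6. The genes named are all members, from each list up to 3 called genes per direction by the size of the change from cluster 1 to cluster 5, and for each member the 3 most correlated genes. The genes smg, aub, vls, tsu, csul, stau, mago, par-1, wun2, CG6707 and Pgam5 were named after their values were seen. Members and lists were chosen with earlier results of these data known.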

Additional observations from a re-analysis of the deposited data

Results flagged for a closer look

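Within clusters of 4 to 10 embryos, 30 groups of values of the 6 genes were checked for an embryo far from the rest, by Dixon's criterion at the 95% level, and 2 held one. Chance alone gives about 1 in 20 such groups. For nos in cluster 3 the embryo at position 42 had 18.7 normalized counts, and the next highest of the 6 embryos had 12.7. For pgc in cluster 7 the embryo at position 74 had 22.6, and the next highest of the 10 had 15.6.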

How the results depend on the processing

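Of the counts of called genes recomputed under the alternatives, 6 lost and 2 gained calls beyond 1.5 times the reported count, and the recomputed shares all moved by less than 1 SD. In the step from cluster 1 to cluster 2, and in that from 0-1 h to 1-2 h, the count went from 1 to 0 with library totals and to 0 with limma. With limma it went from 5 to 3 in the step to cluster 4, and from 2 to 1 in the step to cluster 6. Within cluster 9, sex gave 1 called gene with DESeq2 (ovo) and 1 with limma (pgc) in place of 0 with edgeR, which called 52 of the 7619 tested genes. How many of all genes DESeq2 and limma called there is not given here. The fits within cluster 9, and the first position below 50%, were chosen after seeing the data. Leaving out each embryo of cluster 4 gave 4 to 5 genes from cluster 3 to cluster 4 and 4 to 6 from cluster 4 to cluster 5. The position of the fall of nos was 39 with a running median over 9 embryos and 36 as the first position below 50%, in place of 42. The causes were not tested. No direction of a called gene reversed. Depth limits osk throughout, and nos and vas from cluster 4 on, where the embryo at position 49 held 1 UMI of nos and 3 of vas. Other genes had low counts as well. The lowest in an embryo was 1 UMI for tud and 3 for ovo in cluster 5, 2 for ovo in cluster 6, and 3 for pgc in cluster 9.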
